A study of Mus musculus with 3 samples.

Results

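The cytosolic ribosomal protein genes encode the protein part of the ribosomes that translate nuclear mRNA. They were taken here as every row of the 3 count tables whose symbol starts with Rpl or Rps and a number, together with *Rplp0*, *Rplp1*, *Rplp2* and *Rpsa*, without pseudogene rows (symbols holding -ps) and without the S6 kinases (symbols starting Rps6k). This gave 86 members of the 14148 genes listed, of which 46 are the canonical genes of the large 60S subunit, 31 those of the small 40S subunit, and 9 lie outside the canonical set. 9 pseudogene rows and 8 S6 kinase rows were left out. The name fits all but *Rps19bp1*, which encodes a protein that binds ribosomal protein S19 and is not itself a ribosomal protein. The 9 outside the canonical set are the paralogues *Rps27l*, *Rpl22l1*, *Rpl36al*, *Rpl7l1*, *Rpl3l*, *Rpl10l* and *Rpl39l*, the retrogene *Rps27rt*, and *Rps19bp1*.

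The data are single-cell counts of CD45+ (pan-leukocyte) cells sorted from the small-intestinal muscularis externa of 12-week-old WT mice of the C57BL/6J strain. There was 1 library from naïve mice, 1 from mice 24 h after intestinal manipulation and 1 from mice 72 h after it, each pooled from 3 to 4 animals. Intestinal manipulation is a surgical handling of the bowel that inflames its muscle layer. The study asked how Mφs and other leukocytes change as this inflammation starts and resolves. No library of sham-operated mice was used here, so the surgery, its anaesthesia and the time since are 1 condition. With 1 library per time point there is no replicate of a time point, the time point and the library cannot be told apart, and no test between time points was run. Intervals on single values cover counting error only, at a confidence level of 95%.

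The libraries held 652 naïve cells, 2211 cells at 24 h and 1239 cells at 72 h, with 1865221, 10542346 and 5246731 unique molecular identifiers (UMIs, each counting 1 captured mRNA molecule) and medians of 2134.5, 4669 and 3295 UMIs per cell. 3 cell barcodes occurred in more than 1 library. Clustering on variable genes, the ribosomal protein genes left out, gave 17 clusters, numbered from 0. By markers they were grouped as B cell-like, T cell-like, DC-like, monocyte/Mφ-like, neutrophil-like and dividing cells, while cluster 8, led by *Gm12840*, *Ptgs2*, *Siglecf* and *Mmp9*, and cluster 15, led by *Pdcd1lg2*, *Gstm1* and *Il1f9* and found at 24 h alone, stayed unnamed. Clusters 8 and 15 carried 7 and 6 of the 8 neutrophil markers but did not meet the further rules for a name. Markers of enteric glia, smooth muscle, fibroblasts and epithelium each summed to at most 69.3 CPM (UMIs of a gene per 1000000 UMIs of the group) in the named classes, dividing cells not examined. Those of endothelium reached 122 CPM, in B cell-like cells at 72 h, with 2 of the 3 genes at 0. T cell-like cells had 1189, 1135 and 1425 CPM of NK cell and ILC markers in the naïve, 24 h and 72 h library, so NK cells and ILCs were not separated from them. Only groups with at least 20 cells in a library were compared.

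A ribosome joins a large and a small subunit, each built in the nucleolus from ribosomal RNA and 1 copy of most ribosomal proteins. Because the subunits hold these proteins in fixed numbers, their genes are transcribed at similar high rates, and their mRNAs share a start with an unbroken run of pyrimidines (the letters C and T), the 5' terminal oligopyrimidine tract, through which the kinase mTOR adjusts their translation to growth signals. In leukocytes the demand for ribosomes is known to be high in lymphocytes that grow and divide and low in mature neutrophils, which are short-lived and hold little RNA. Several members have known roles apart from this: *Rps27l* is induced by p53, the protein of *Rpl22* represses its paralogue *Rpl22l1*, and *Rps27a* encodes ubiquitin fused to a ribosomal protein.

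The start regions of 66 of the 86 members had an entry in the RefSeq promoter table (GRCm38.p6). Within 50 bases either side of the start, on the strand of the gene, 41 of the 66 members (62.1%) held a run of at least 10 pyrimidines, against 17.9% of the 26959 other genes of that table and 16.2% of the 10512 of them listed in the counts. The median longest run was 10 bases in members and 7 in the other genes. Runs of purines of that length, which are pyrimidine runs on the other strand, occurred in 12.1% of members and 18.4% of the other genes. A match describes letters and is not evidence that a transcript starts there. The windows below show the longest runs in the set and those of members on which the results turn. Each is 30 bases on the gene's strand, 5' to 3', with the longest pyrimidine run in capitals. All lie at the annotated start, in the promoter or the first exon.
Rpl7a, chr2:26910789-26910818, plus strand: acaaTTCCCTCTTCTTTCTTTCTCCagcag
Rpl27a, chr7:109519186-109519215, plus strand: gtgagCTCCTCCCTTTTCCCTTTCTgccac
Rpl35, chr2:39005115-39005144, minus strand: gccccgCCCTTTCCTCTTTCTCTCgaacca
Rpl15, chr14:18270967-18270996, minus strand: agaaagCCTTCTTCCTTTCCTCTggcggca
Rpl4, chr9:64173406-64173435, plus strand: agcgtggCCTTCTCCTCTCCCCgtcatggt
Rpl13a, chr7:45128722-45128751, minus strand: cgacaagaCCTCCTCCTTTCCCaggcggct
Rpl37a, chr1:72711275-72711304, plus strand: gcattgcgTCCCTTCCTCTTCggacttggg
Rpl9, chr5:65391383-65391412, minus strand: acgaaagacgTTCTCTCTTTgccccatcta
Rpl22l1, chr3:28805499-28805528, plus strand: cgcaagcccgTTCTCTTCCCacggctgcag
Rps9, chr7:3704025-3704054, plus strand: aaccgccttgTCTCTCTTTgtctcgggcct
Rps27l, chr9:66946054-66946083, plus strand: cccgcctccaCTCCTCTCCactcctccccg
Rpl12, chr2:32961732-32961761, plus strand: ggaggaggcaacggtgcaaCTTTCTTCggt
Rps27rt, chr9:114982755-114982784, minus strand: gtctccaaaagTTCTTCTgtgctttggtta
Rps28, chr17:33824566-33824595, minus strand: ctgtcccgaggaTTCCTgggtaccgcgtgc
The run was 21 bases in *Rpl7a*, 20 in *Rpl27a* and 18 in *Rpl35*. It was 9 in *Rps27l* and *Rps9*, 8 in *Rpl12*, 7 in *Rps27rt* and 5 in *Rps28*, so these letters alone do not mark every member.

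The 86 members held 3797663 of the 17654298 UMIs, or 21.5%. They took 26.5% of the naïve library, 19.5% of the 24 h library and 23.8% of the 72 h library, but these totals mix cell types in different proportions. The 10 members with the most UMIs were *Rpl41* (102786 UMIs), *Rpl37a* (90651), *Rps27a* (89215), *Rpl32* (88352), *Rpl13* (88132), *Rps19* (84396), *Rps23* (78925), *Rps14* (76004), *Rps29* (75222) and *Rps16* (73095). UMIs were counted at the 3' end of transcripts, so these counts do not scale with gene length. The lowest canonical members were *Rps27* (2866 UMIs), *Rpl10* (2232), *Rps12* (1400) and *Rpl27* (1301). Each of these 4 has a near-identical copy among the rows listed, and the row of the copy held more UMIs than *Rpl10* (*Rpl10-ps3*, 12095), *Rps12* (*Rps12-ps3*, 3511) and *Rpl27* (*Rpl27-ps3*, 3307) themselves. Their low values are therefore uncertain as levels of the gene. Of the paralogues, *Rps27l* had 13494 UMIs, *Rpl22l1* 13018 and *Rpl36al* 10199, the retrogene *Rps27rt* had 6255, *Rpl7l1* 1199 and *Rps19bp1* 930. *Rpl3l*, known as the striated muscle paralogue of *Rpl3*, had 58 UMIs, *Rpl10l*, known from testis, had 45 and *Rpl39l* had 9. 13 of the 58 *Rpl3l* UMIs were in neutrophil-like cells at 72 h (90.1 CPM) and 7 in those at 24 h (20.1 CPM), while the class of monocytes/Mφs had 1.62 to 2.03 CPM.

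The share of UMIs held by the members separated the cell types more than the time points. B cell-like cells gave 33.8% of their UMIs to ribosomal protein genes in the naïve library (225 cells, 95% interval 33.6 to 33.9%), 31.5% at 24 h (32 cells) and 36.8% at 72 h (43 cells). T cell-like cells gave 25.8% (188 cells), 26.4% (71 cells) and 29.1% (136 cells). DC-like cells gave 27.3% (21 cells), 23.2% (122 cells) and 25.6% (136 cells). Monocytes/Mφs gave 20.1% (139 cells), 19.5% (1543 cells) and 23.5% (574 cells). Neutrophil-like cells gave 4.71% at 24 h (359 cells, interval 4.64 to 4.78%) and 5.59% at 72 h (111 cells, interval 5.48 to 5.71%), the lowest of the named classes. Dividing cells, a mix of lineages, gave 28.0% in the naïve library (52 cells) and 26.0% at 72 h (36 cells). Over the libraries the shares of B cell-like, T cell-like, monocyte/Mφ-like and neutrophil-like cells did not overlap with each other, whereas DC-like cells lay above T cell-like cells in the naïve library and below them at 24 h and 72 h.

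**Figure D1:**
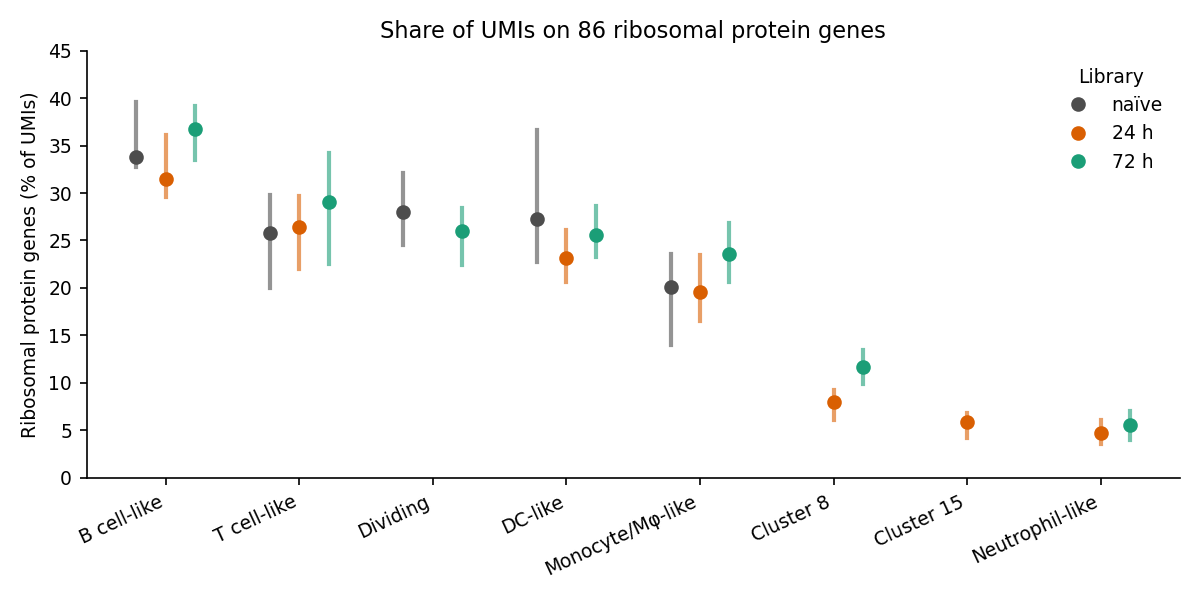
Share of UMIs in the 86 ribosomal protein genes (percent, y axis) in each cell group (x axis). Each point is the share in the summed cells of 1 library (naïve, 24 h, 72 h). Its bar runs from the lower to the upper quartile of the share over single cells and is not a counting interval. B cell-like cells lie between 31.5% and 36.8%, monocytes/Mφs between 19.5% and 23.5% and neutrophil-like cells between 4.71% and 5.59%.

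Within a library, the share in B cell-like cells was 1.68 times that in monocytes/Mφs in naïve mice, 1.61 times at 24 h and 1.56 times at 72 h, or 1.62 ± 0.058 (SD, n = 3 libraries). For T cell-like cells the ratio was 1.28, 1.35 and 1.23, or 1.29 ± 0.059. For DC-like cells it was 1.35, 1.19 and 1.09, or 1.21 ± 0.135, with the naïve value resting on 21 cells. Neutrophil-like cells held 0.241 and 0.238 of the share of monocytes/Mφs at 24 h and 72 h (mean 0.239 ± 0.0025, n = 2 libraries). Neutrophil-like cells had medians of 848 and 1248 UMIs per cell against 5922 and 5328 in monocytes/Mφs, and a lower share means fewer ribosomal protein mRNAs per mRNA captured. With the neutrophil-like cells at 24 h split by depth into 3 equal groups, the share was 5.28% in the shallowest group and 3.93% in the deepest. In monocytes/Mφs of the same library these were 22.2% and 19.2%. The middle groups had 5.60% and 18.9%, so at 24 h the share did not fall steadily with depth in either class. At 72 h it did so in both. The shallowest, middle and deepest groups had 6.95%, 6.29% and 4.52% in neutrophil-like cells and 24.9%, 23.5% and 23.2% in monocytes/Mφs. In naïve monocytes/Mφs the deepest group had the higher share, 21.8% against 19.0%. In cells of 1000 to 4000 UMIs alone, the share in neutrophil-like cells was 0.193 times that in monocytes/Mφs (mean of 2 libraries). This window lies below both medians of monocytes/Mφs and, at 24 h, above that of neutrophil-like cells. It thus took unlike parts of the 2 classes.

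The members kept a similar balance between the subunits in all classes. The UMIs of the canonical 60S genes over those of the canonical 40S genes were 1.18, 1.19 and 1.23 in B cell-like cells of the naïve, 24 h and 72 h library, 1.254, 1.265 and 1.286 in T cell-like cells, and 1.211, 1.226 and 1.248 in monocytes/Mφs. Neutrophil-like cells had 1.18 (interval 1.14 to 1.21) at 24 h and 1.14 (interval 1.09 to 1.19) at 72 h. A range of shares from 4.71% to 36.8% was thus accompanied by a ratio of the subunits between 1.14 and 1.29.

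Within classes, clusters differed as well. Of the T cell-like clusters, cluster 9 gave 30.95% in the naïve library and cluster 10, led by *Gzma*, *Gzmb* and *Ccl5* and with *Cd8a* and *Trdc* among its leading genes, 23.3%. At 72 h these were 30.1% and 25.4%. Cluster 10 held 130 of the 188 T cell-like cells of the naïve library, 6 of 71 at 24 h and 28 of 136 at 72 h, so the share of the class moved with its makeup: between naïve and 24 h it went from 25.8% to 26.4%, but in cluster 9 alone from 30.95% to 26.4%. Cluster 9, with 58, 65 and 108 cells, can be mixed as well. At resolution 1.2 cluster 10 kept its numbers. A T cell-like cluster of 46, 36 and 72 cells then stood beside a cluster with NK cell and ILC markers of 12, 29 and 36 cells. The part of this in the values of cluster 9 was not tested. Among monocytes/Mφs, cluster 13, with *Cx3cr1* and *Tmem119* among its leading genes, gave 18.1% in the naïve library. At 24 h the clusters of monocytes/Mφs ranged from 17.3% (cluster 3) to 21.5% (cluster 0), and at 72 h from 21.7% (cluster 11) to 24.6% (cluster 5). Neutrophil-like cluster 14, led by *Acod1*, had the lowest share of all, 2.73% at 24 h (48 cells, interval 2.61 to 2.85%), against 5.21% in neutrophil-like cluster 2 of the same library.

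The differences between classes were tested gene by gene with edgeR's quasi-likelihood test on the UMIs of B cell-like, T cell-like and monocyte/Mφ-like cells summed within each library, with the library as a block, TMM scaling and Benjamini-Hochberg adjustment over all 5854 genes tested. The 3 libraries are of 3 time points, so the p-values measure the spread of a class difference over these libraries. 83 members entered the test and *Rpl3l*, *Rpl10l* and *Rpl39l* did not. At an adjusted p under 0.05, 69 of the 83 were higher in B cell-like cells than in monocytes/Mφs, 1 was lower and 13 passed in neither direction. Over all genes 12.2% were higher and 18.3% lower. The median log2 fold change was 0.69 over the members and -0.07 over all genes. In each of the 3 libraries 75 members had a higher CPM in B cell-like cells, a count that is not given here for all genes. Without the 72 h library 30 of the 83 passed as higher and 1 as lower, against 6.37% and 11.3% of all genes. The median over the members was then 0.71. B cell markers, immunoglobulin genes among them, took 62961, 73236 and 15191 CPM in B cell-like cells of the naïve, 24 h and 72 h library, so the UMIs left for other genes differed. They summed to 4053, 298 and 280 CPM in monocytes/Mφs of these libraries. Free or carried-over B cell RNA can give such values, and so can doublets, which were kept. The part of any of these in the differences was not tested.

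Of the members higher in B cell-like cells than in monocytes/Mφs, *Rps27* and its retrogene *Rps27rt* differed the most. *Rps27rt* was at 1189, 596 and 1506 CPM in B cell-like cells and at 456, 171 and 552 CPM in monocytes/Mφs of the naïve, 24 h and 72 h library (log2 fold change 1.52, SE 0.19, edgeR adjusted p = 1.93e-05). In both classes the 24 h value was the lowest, and in each library the B cell-like value was the higher. *Rps27*, whose last 400 transcript bases are nearly all shared with *Rps27rt*, differed by 1.60 (SE 0.25, adjusted p = 0.000146), and how reads were split between these rows is uncertain. *Rpl12*, part of the stalk base where elongation factors bind, was at 3263, 3273 and 3412 CPM against 1286, 1363 and 1309 CPM (log2 fold change 1.32, SE 0.14, adjusted p = 2.81e-06), with steady values in both classes and no overlap. *Rpl4*, a core protein of the peptide exit tunnel, differed by 1.201 (adjusted p = 8.20e-06) and *Rpsa*, also known as the laminin receptor, by 1.14 (adjusted p = 6.83e-06). Among the smallest differences that passed were those of *Rpl37a* (0.34, adjusted p = 0.0351), *Rpl35a* (0.39, adjusted p = 0.0202) and *Rpl38* (0.43, adjusted p = 0.0192). Of the 10 members with the most UMIs, *Rpl41* and *Rps27a* (log2 fold changes 0.11 and 0.13) and *Rps29* (0.23) did not pass.

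*Rps27l* was the 1 member that went the other way. It was at 168, 349 and 165 CPM in B cell-like cells and at 460, 987 and 555 CPM in monocytes/Mφs of the naïve, 24 h and 72 h library (log2 fold change -1.56, SE 0.22, edgeR adjusted p = 4.42e-05). In T cell-like cells it was at 242, 445 and 267 CPM (log2 fold change -1.31, SE 0.20, adjusted p = 5.50e-05). In each library both lymphoid values lay below that of the monocytes/Mφs, and in all 3 classes the 24 h value was the highest. *Rps27l* lies on chromosome 9 at 66946086 to 66949516 (GRCm38, plus strand). Its paralogue *Rps27*, on chromosome 3 at 90212522 to 90213651, went in the opposite direction between the classes, and its retrogene *Rps27rt* did as well. DC-like cells had 548, 715 and 792 CPM of *Rps27l*, neutrophil-like cells 273 and 229 CPM at 24 h and 72 h, dividing cells 460 and 757 CPM in the naïve and 72 h library. In cluster 8 it was at 357 CPM at 24 h (27 cells) and 1282 CPM at 72 h (203 cells), the highest level of any group.

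**Figure D2:**
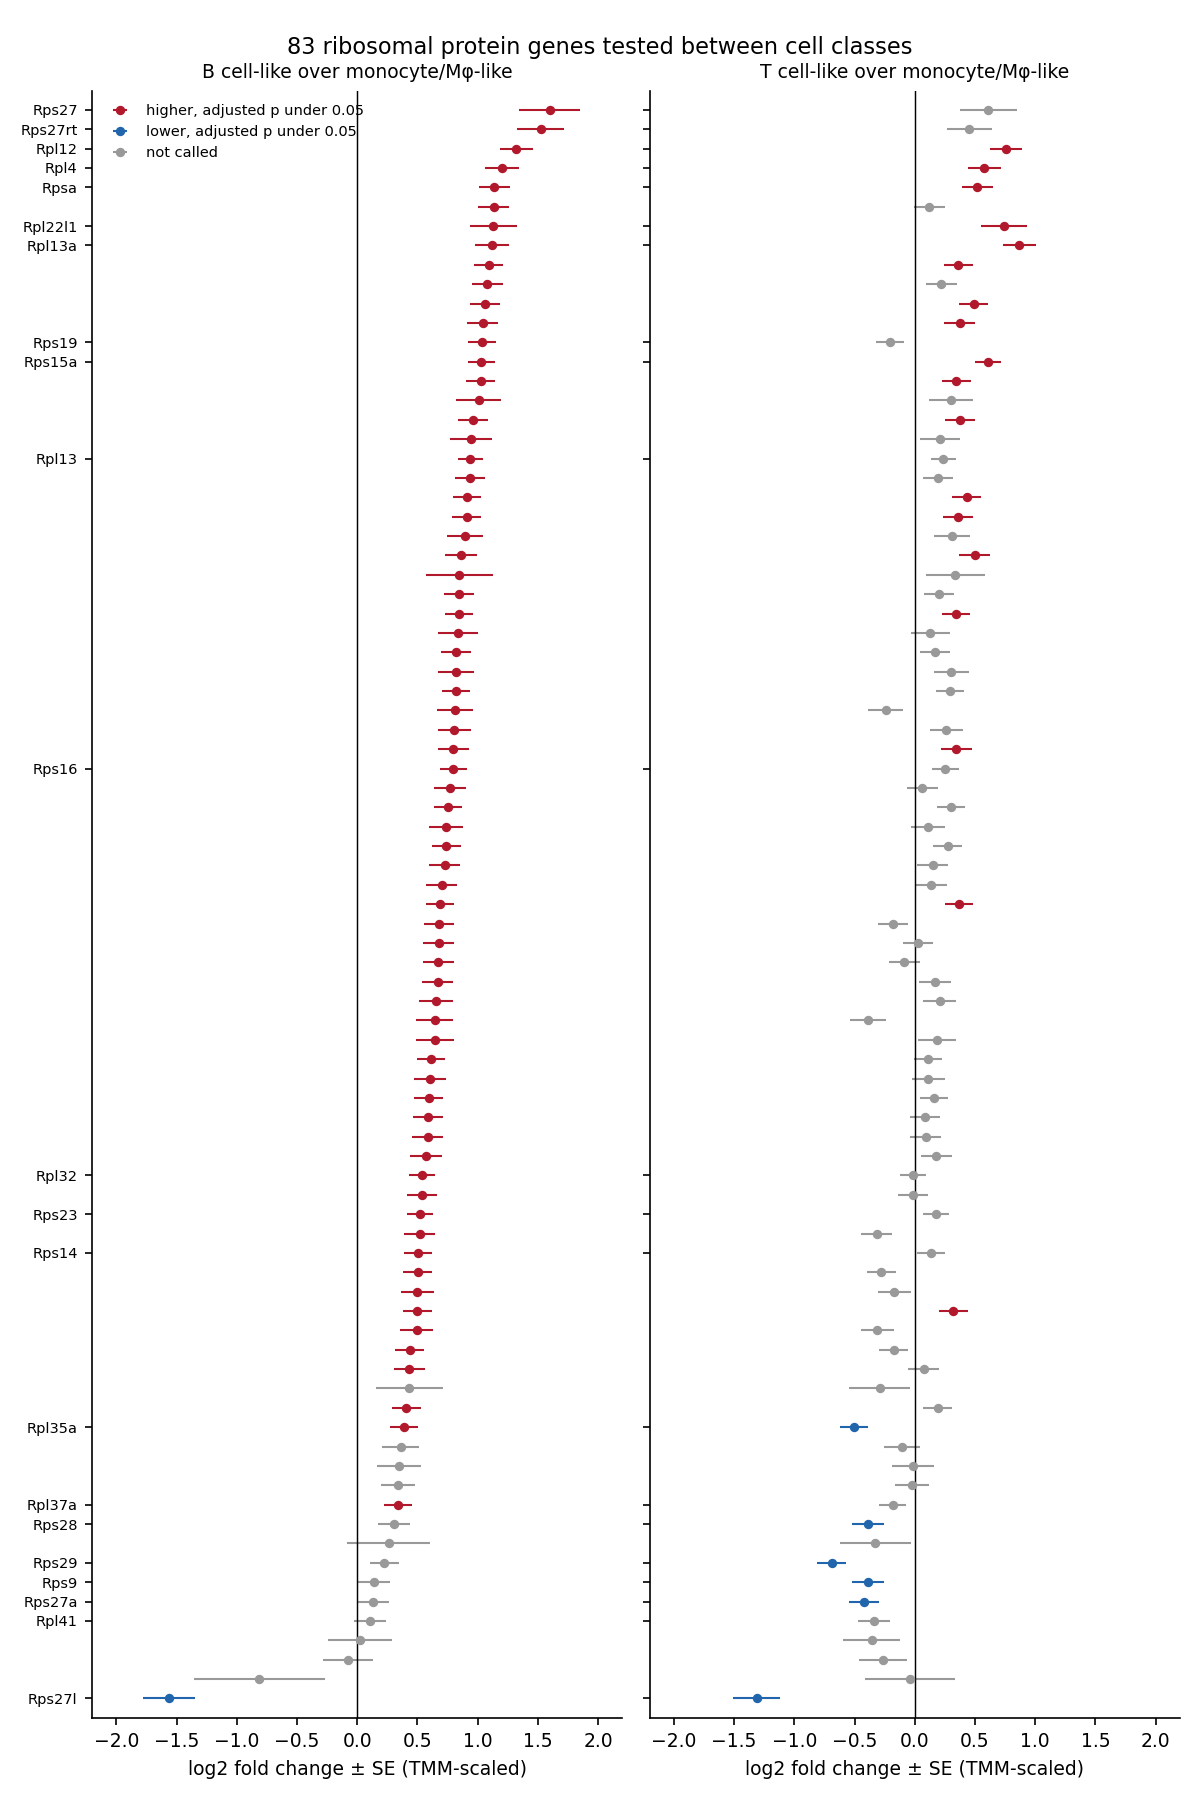
Log2 fold change of each of the 83 ribosomal protein genes tested (edgeR) in B cell-like and T cell-like cells against monocytes/Mφs, with bars for the SE, ordered by the difference in B cell-like cells and coloured for an adjusted p under 0.05, with names for the largest differences, the members called lower and the 10 members with the most UMIs. B cell-like cells show 69 members higher and 1 lower (*Rps27l*, -1.56), T cell-like cells 18 higher and 6 lower.

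In T cell-like cells the members split. 18 of the 83 were higher than in monocytes/Mφs, 6 were lower and 59 passed in neither direction, against 16.9% higher and 20% lower over all genes, so the share of members called higher was near that of all genes. The median log2 fold change was 0.16 over the members and 0.03 over all genes. These counts depended on the scaling: with library size alone 55 were higher and 2 lower, against 26.9% and 15.5% of all genes. The median of all genes was then 0.31, while the members stood 0.13 above the median of all genes under either scaling. Without the 72 h library 1 was higher and 1 lower (8.48% and 12.7% of all genes). Without the 24 h library these were 6 and 5 (14.6% and 18.3% of all genes). *Rpl13a*, known for the inflammatory GAIT pathway, was at 2289, 1973 and 3486 CPM in T cell-like cells and 1051, 833 and 1690 CPM in monocytes/Mφs (log2 fold change 0.87, SE 0.14, adjusted p = 0.000108). *Rpl22l1* was at 1124, 1167 and 1158 CPM against 444, 699 and 576 CPM (log2 fold change 0.74, adjusted p = 0.00589), with every T cell-like value above every monocyte/Mφ-like value. The log2 fold change was 0.76 for *Rpl12*, 0.61 for *Rps15a* and 0.58 for *Rpl4*. *Rplp1* (0.32, adjusted p = 0.0455), of the acidic stalk, and *Rps18* (0.34, adjusted p = 0.0299) were just past the threshold.

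Next to *Rps27l*, the members lower in T cell-like cells were 4 genes of the 40S and 1 of the 60S subunit: *Rps29* (log2 fold change -0.69, adjusted p = 0.000271), *Rpl35a* (-0.51, adjusted p = 0.00286), *Rps27a* (-0.42, adjusted p = 0.0156), *Rps9* (-0.39, adjusted p = 0.0306) and *Rps28* (-0.39, adjusted p = 0.0311). *Rps29*, a zinc-binding protein of the subunit head, was at 3941, 2662 and 5010 CPM in T cell-like cells and 5410, 3067 and 7525 CPM in monocytes/Mφs. It was lower in T cell-like cells in all 3 libraries, and in both classes its 24 h value was below the others. *Rps27a*, *Rps9* and *Rps28* had a lower CPM in T cell-like cells in 2 of the 3 libraries. *Rpl22l1* was also higher in B cell-like cells (1.13, adjusted p = 0.000362), whereas *Rpl22* itself passed in neither class (0.36, adjusted p = 0.0907, and -0.11, adjusted p = 0.622).

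*Rpl32* and *Rpl22* bear on tools of the study, in which *Rpl32* is the qPCR reference and *Rpl22* the tagged protein of RiboTag mice. *Rpl32* was at 4392, 4941 and 5051 CPM in monocytes/Mφs of the naïve, 24 h and 72 h library, at 6821, 6663 and 7530 CPM in B cell-like cells, at 5271, 5791 and 6055 CPM in T cell-like cells and at 6325, 5266 and 5852 CPM in DC-like cells. Neutrophil-like cells had 928 and 853 CPM at 24 h and 72 h. Within a class, its values between libraries lay closer than those between neutrophil-like and the other cells. The TMM-scaled log2 difference of *Rpl32* between B cell-like cells and monocytes/Mφs was 0.54 (SE 0.11, edgeR adjusted p = 0.00119). That of T cell-like cells was -0.02 (adjusted p = 0.923), although its CPM, which is not TMM-scaled, was higher in T cell-like cells in each of the 3 libraries. *Rpl22* was at 1254, 1351 and 1497 CPM in monocytes/Mφs, 1818, 1557 and 1915 CPM in B cell-like cells and 218 and 208 CPM in neutrophil-like cells.

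**Figure D3:**
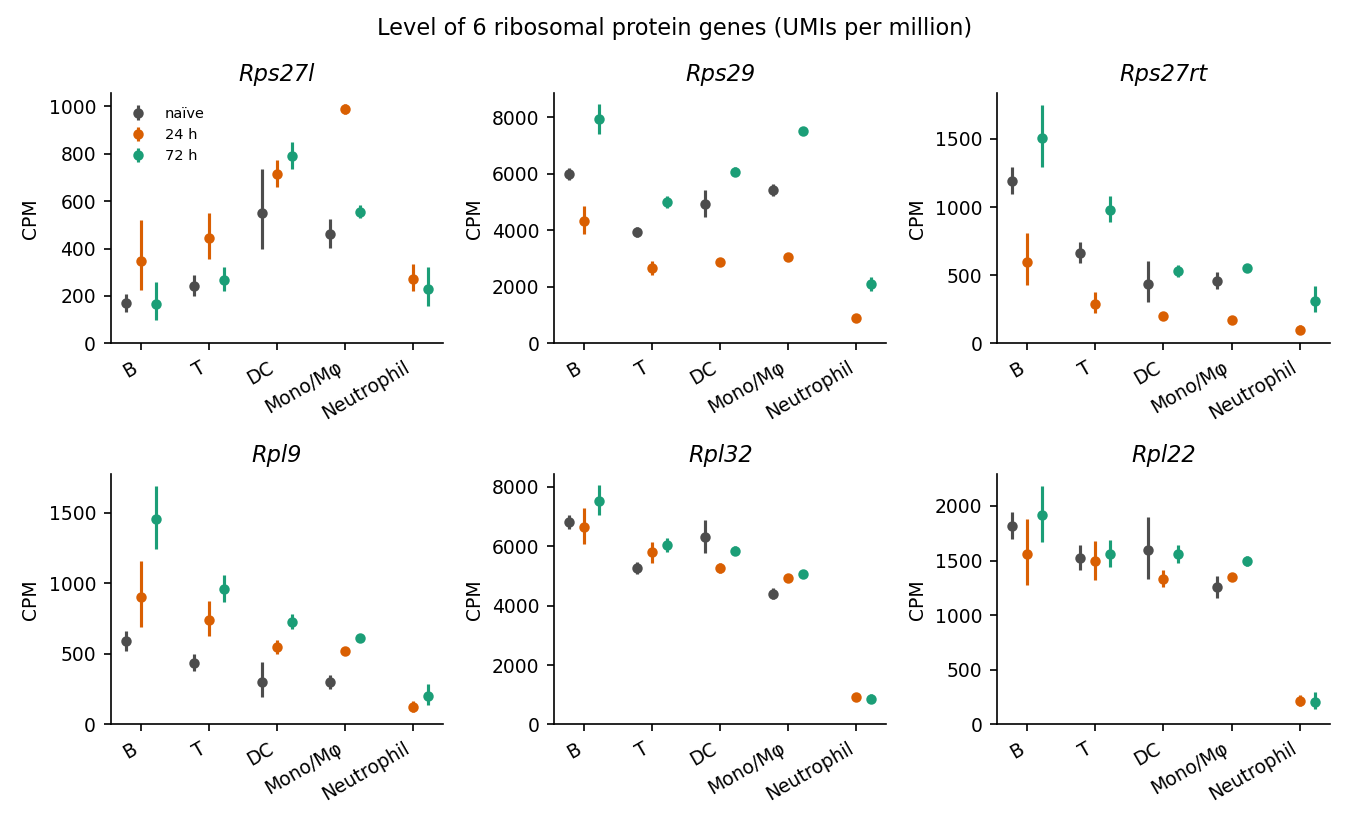
CPM (y axis, from 0) of 6 ribosomal protein genes in 5 cell classes (x axis), 1 point per library with its exact Poisson interval. *Rps27l* lies between 165 and 349 CPM in B cell-like cells and reaches 987 CPM in monocytes/Mφs at 24 h, *Rps29* and *Rps27rt* are lowest at 24 h in each class with 3 libraries, and *Rpl9* is lowest in the naïve library there.

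Between libraries the share of the whole set moved in 1 direction for 1 pair. The 72 h value was above the 24 h value in each group compared: 1.17 times in B, 1.10 in T, 1.10 in DC-like cells, 1.204 in monocytes/Mφs, 1.19 in neutrophil-like cells and 1.47 in cluster 8. The same held in each single cluster with enough cells in both libraries, among them clusters 0 (1.08) and 4 (1.10) of monocytes/Mφs. A difference seen in every cell type of a library is set apart here, since it cannot be told apart from a difference in how the libraries were made. The classes were mixed in the other pairs. From naïve to 24 h the ratio was 0.932 in B, 1.02 in T, 0.851 in DC-like cells and 0.970 in monocytes/Mφs. The monocytes/Mφs differed in makeup. Clusters 13 and 5 held 65 and 45 of the 139 naïve cells of the class and 1 and 7 of the 1543 at 24 h. None of its clusters had enough cells in both libraries. The ratio was below 1 in each of the 3 single clusters with enough cells in both libraries, at 0.932 in cluster 6 (all B cell-like cells), 0.859 in cluster 7 (DC-like) and 0.854 in T cell-like cluster 9, so the value above 1 in the T cell-like class was not seen in cluster 9 and went with the lower number of cluster 10 cells at 24 h. The makeup of cluster 9 can differ between these libraries too, as given above, and its part was not tested. From naïve to 72 h the ratio was 1.09 in B, 1.13 in T, 0.939 in DC-like cells, 1.17 in monocytes/Mφs and 0.928 in dividing cells. In cluster 5 of monocytes/Mφs alone that ratio was 1.19. Within the T cell-like class that ratio was 0.971 in cluster 9 and 1.09 in cluster 10, both below the value of the class. In cells with 1000 to 4000 UMIs the median ratio of 24 h to naïve was 1.03 in place of 0.951.

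Single members were compared between libraries in the same way. A ratio of CPM past 1.5 in either direction was counted for genes that reached 50 CPM in 1 of the libraries and had a sum of 10 UMIs or more over the pair. From naïve to 24 h, 3 members were past it upwards and 3 downwards of 82 in B cell-like cells (43.9% of all genes were past it either way), 2 and 1 of 82 in T cell-like cells (36.3%), 2 and 7 of 83 in DC-like cells (44.9%) and 7 and 3 of 83 in monocytes/Mφs (44.4%). From naïve to 72 h, the counts were 5 and 0 of 82 in B (38.2%), 5 and 1 of 83 in T (26.4%), 1 and 0 of 82 in DC-like cells (42.2%), 10 and 0 of 82 in monocytes/Mφs (20.2%), and 3 and 1 of 82 in dividing cells (46.1%). From 24 h to 72 h, they were 11 and 1 of 82 in B (40.8%), 8 and 1 of 82 in T (26.7%), 12 and 0 of 83 in DC-like cells (18.8%), 15 and 3 of 83 in monocytes/Mφs (27.3%), 16 and 0 of 79 in neutrophil-like cells (37.4%) and 46 and 1 of 83 in cluster 8 (58.9%). Members carry more UMIs than most genes, so the counting error behind their ratios is smaller, and these counts are not a test of the members against other genes.

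To set library shifts apart, each member was expressed as its share of the ribosomal protein UMIs of a group, and that share was required to be at least 25% higher in 1 library than in the other, in the same direction, in every group compared. From naïve to 24 h, 5 of 83 members met this in all 4 groups: *Rpl9* and *Rps27l* were higher at 24 h and *Rps27rt*, *Rps28* and *Rps29* lower. By the same measure, taken relative to the median gene, 4.83% of all genes met it. From naïve to 72 h it was 3 of 83 in all 5 groups, *Rpl9*, *Rpl13a* and *Rpl27*, each higher at 72 h (1.83% of all genes). From 24 h to 72 h it was 5 of 81 in all 6 groups, *Rps29*, *Rps28*, *Rps27rt*, *Rpl35* and *Rpl27*, each higher at 72 h (1.91% of all genes), with *Rpl27* in cluster 8 at 0 UMIs at 24 h. Differences of these members with time are therefore given for all groups together and are not read as a response of 1 cell type.

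*Rps29*, *Rps28* and *Rps27rt* were low at 24 h in every class. *Rps29* (chromosome 12, 69157722 to 69159186) was at 5990, 4335 and 7922 CPM in B cell-like cells of the naïve, 24 h and 72 h library, at 4931, 2874 and 6067 CPM in DC-like cells and at 905 and 2087 CPM in neutrophil-like cells at 24 h and 72 h. Its share of ribosomal protein UMIs was 1.57 to 2.04 times higher at 72 h than at 24 h over the 6 groups, and 0.584 to 0.776 times the naïve share at 24 h. *Rps28*, a small protein at the mRNA exit channel (chromosome 17, 33819027 to 33824562), had ratios of 1.497 to 1.78 between 72 h and 24 h. *Rps27rt* (chromosome 9, 114982366 to 114982739) had ratios of 1.91 to 3.06. *Rpl9* (chromosome 5, 65388364 to 65391444) was instead low in the naïve library: it was at 590, 902 and 1454 CPM in B cell-like cells, 436, 742 and 962 CPM in T cell-like cells and 298, 517 and 616 CPM in monocytes/Mφs, with 24 h over naïve ratios of its share between 1.64 and 2.15. The order of the 3 libraries was the same in these 3 classes. The size of this difference depended on the rows counted: with *Rpl9-ps1* and *Rpl9-ps6* added, the sum in B cell-like cells was 1085, 1237 and 2289 CPM, and *Rpl9* no longer met the 25% rule from naïve to 24 h but did so from naïve to 72 h.

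*Rps27l* met the rule from naïve to 24 h, with ratios of its share from 1.53 to 2.22, but not for the other pairs. At 72 h its CPM was 0.474 times the 24 h value in B cell-like cells, 0.598 in T cell-like cells and 0.562 in monocytes/Mφs (interval 0.534 to 0.592). In DC-like cells it was at 715 CPM at 24 h and 792 CPM at 72 h, and in cluster 8 its CPM was 3.59 times higher at 72 h (interval 1.72 to 9.03). The classes thus went in different directions between 24 h and 72 h, which was not tested. *Rps2*, at the mRNA entry channel, was at 1594, 2812 and 1999 CPM in monocytes/Mφs of the naïve, 24 h and 72 h library, with a 24 h over naïve ratio of 1.76 (interval 1.64 to 1.90). In DC-like cells that ratio was 1.26 (interval 1.09 to 1.46). *Rpl22l1* was at 699 CPM in monocytes/Mφs at 24 h and 576 CPM at 72 h. *Rpl36al* was at 353, 585 and 665 CPM there, and its 72 h over naïve ratio of 1.88 (interval 1.61 to 2.21) stood beside 1.45 in DC-like cells. The clusters making up monocytes/Mφs differed between the libraries, so ratios in this class need not be changes within 1 cell type.

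The shift between libraries ran with the length of the members. The rank correlation of a canonical gene's coding length with the 72 h over 24 h ratio of its share of ribosomal protein UMIs was -0.36 in B cell-like cells, -0.55 in T cell-like cells, -0.69 in DC-like cells, -0.53 in monocytes/Mφs and -0.61 in neutrophil-like cells (n = 77 genes each), and -0.38 in cluster 8 (n = 75). From naïve to 24 h it was positive, 0.41 in B, 0.61 in T, 0.68 in DC-like cells and 0.41 in monocytes/Mφs. Genes of up to 405 coding bases (27 genes) had a median 72 h over 24 h ratio of 1.11 to 1.17 over the 6 groups, and genes of at least 576 bases (26 genes) 0.806 to 1.02. Over the genes that are not members, the correlation for 72 h and 24 h lay between -0.06 and 0.19 in the 5 named classes. From naïve to 72 h the correlation over members lay between -0.15 and -0.39. The groups share the libraries, and *Rps29* (168 coding bases), *Rps28* (207) and *Rps27rt* (252) are among the shorter members.

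**Figure D4:**
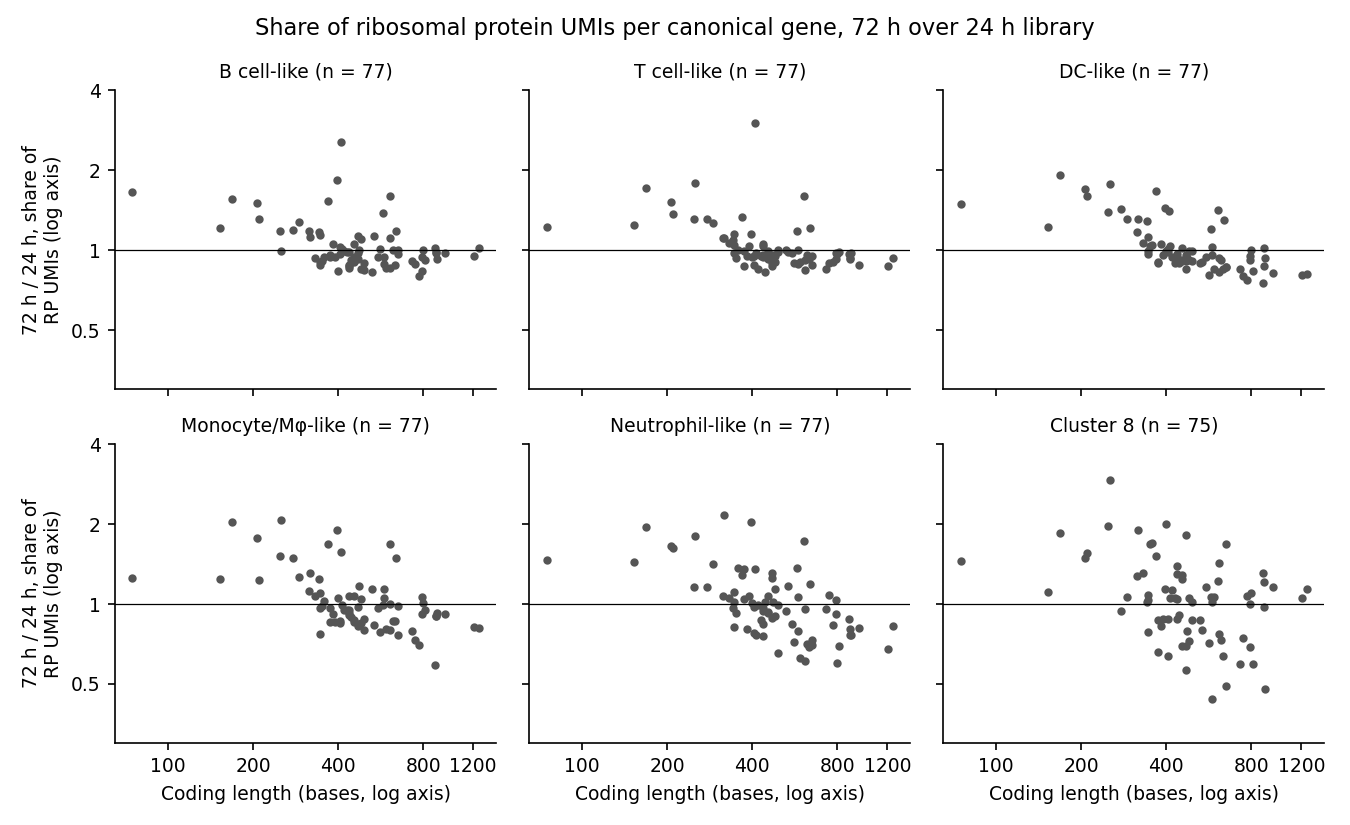
Ratio of the 72 h to the 24 h share of ribosomal protein UMIs (y axis, log) against coding length in bases (x axis, log) for the canonical ribosomal protein genes, 1 panel per cell group and 1 point per gene. Short genes lie higher than long ones in each of the 6 panels, with rank correlations from -0.36 to -0.69.

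A further set of shifts went with sequence shared between rows. The last 400 bases of each member's main transcript (GENCODE vM21) were cut into overlapping words of 31 bases and looked up in all transcripts of other genes. The median member had 75.8% of its words in some other annotated gene and 59 of the 86 had none in a gene listed in the count tables. In 16 members more than 50% of the words lay in another gene that is listed: *Rpl7a*, *Rpl9*, *Rpl10*, *Rpl21*, *Rpl27*, *Rpl29*, *Rpl35*, *Rpl36a*, *Rpl41*, *Rplp1*, *Rplp2*, *Rps7*, *Rps12*, *Rps18*, *Rps27* and *Rps27rt*. This grouping was made after the values had been seen. From naïve to 72 h the CPM of these 16 was above 1-fold in 16 of 16 in B, T and monocyte/Mφ-like cells. So was that of most other members, 51 of 66, 63 of 67 and 63 of 66 in these classes. The medians were 1.24, 1.36 and 1.48 in the 16, against 1.07, 1.11 and 1.12 in the other members. In DC-like and dividing cells, where the other members had medians of 0.915 and 0.901, the 16 had 1.12 and 1.11. From 24 h to 72 h the medians of the 16 were 1.35 in B, 1.245 in T, 1.43 in DC-like cells and 1.51 in monocytes/Mφs, against 1.12, 1.05, 1.03 and 1.11 in the other members. From naïve to 24 h the 16 were not above the other members, with medians of 0.915 against 0.943 in B and 1.02 against 1.04 in T cell-like cells. The pseudogene rows left out of the set moved likewise: 7 of them had medians of 1.65, 1.62 and 1.82 in B, T and monocyte/Mφ-like cells from naïve to 72 h. Of the 8 members set apart above, *Rpl9*, *Rpl27*, *Rpl35* and *Rps27rt* are among the 16, while *Rps27l*, *Rps28*, *Rps29* and *Rpl13a* are not. What differed between the libraries in read length, mapping or counting was not tested.

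**Figure D5:**
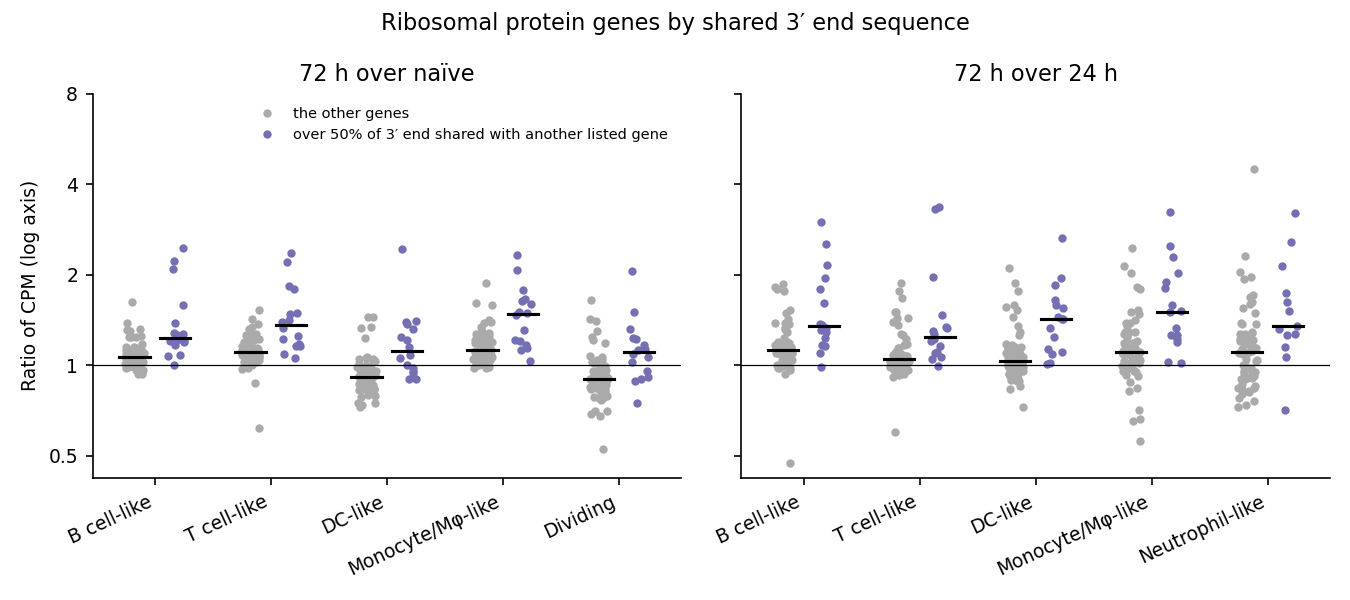
Ratio of CPM between libraries (y axis, log) for each ribosomal protein gene by cell group (x axis), split into the 16 genes that share over 50% of their 3' end with another listed gene and the other genes, with medians as bars. The median of the 16 lies above that of the others in each group of both panels, at 1.48 and 1.12 in monocytes/Mφs for 72 h over naïve.

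Neutrophil-like cells had a low level of nearly all members but not in equal measure. Among 78 members with at least 10 UMIs in both classes, the share of ribosomal protein UMIs in neutrophil-like cells relative to monocytes/Mφs was highest for *Rps9*, 3.10 at 24 h (interval 2.90 to 3.30) and 2.14 at 72 h (interval 1.93 to 2.38). *Rps9*, which lies near the mRNA entry channel of the 40S subunit, was at 2705 and 2544 CPM in neutrophil-like cells and at 3623 and 4991 CPM in monocytes/Mφs. *Rps27rt* (2.37 and 2.38) and *Rps27* (2.30 and 2.01) came next, the latter on 18 and 16 UMIs. The lowest were *Rps18* (geometric mean of the libraries 0.293), *Rpl36a* (0.311) and *Rpl7a* (0.371). Monocyte/Mφ markers summed to 6633 and 5088 CPM in neutrophil-like cells, and neutrophil markers to 1809 and 1288 CPM in monocytes/Mφs, at 24 h and 72 h. How far such carried-over RNA enters these values was not tested. A similar exception lay outside the members: *Fau*, which encodes ribosomal protein S30 fused to a ubiquitin-like protein, was at 4299 and 5303 CPM in neutrophil-like cells against 4672 and 6294 CPM in monocytes/Mφs. *Rack1*, the scaffold on the 40S head, was at 152 and 111 CPM against 1144 and 1228 CPM.

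Cluster 8 stood between neutrophil-like cells and the rest, with 7.95% at 24 h and 11.7% at 72 h, and cluster 15 had 5.86% at 24 h. Cluster 8 had medians of 756 and 954 UMIs per cell. Its 24 h cells were few (27 cells, 1560 ribosomal protein UMIs). From 24 h to 72 h, 46 of its 83 members and 1134 of all 3032 genes compared were past 1.5-fold upwards. The median ratio was 1.55 over the members and 1.16 over all genes. *Rpl10* and *Rpl27* were at 0 UMIs there at 24 h, and no ratio is given for them. In this cluster *Rps9* went the other way, from 3210 CPM at 24 h to 2068 CPM at 72 h (ratio 0.644, interval 0.494 to 0.853).

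Other genes of the translation machinery were compared by the same test, in which 12.2% of all genes were higher and 18.3% lower in B cell-like cells, and 16.9% higher and 20% lower in T cell-like cells. Of 16 translation factors whose mRNAs belong to the same oligopyrimidine group, 8 were higher in B cell-like cells than in monocytes/Mφs and 0 lower (median log2 fold change 0.68), while 3 of 16 were higher in T cell-like cells (median 0.26), near the share over all genes. *Eef1a1*, the main elongation factor, was at 7682, 7507 and 9001 CPM in B cell-like cells, 7695, 8496 and 8493 CPM in T cell-like cells, 5031, 5190 and 5308 CPM in monocytes/Mφs, and 864 and 867 CPM in neutrophil-like cells. Of 17 ribosome biogenesis genes tested, 8 were higher in B cell-like and 4 in T cell-like cells (medians 0.89 and 0.69). *Npm1*, a nucleolar chaperone, was at 855, 1135 and 1227 CPM in B cell-like cells against 521, 595 and 536 CPM in monocytes/Mφs, and at 1729 CPM in naïve dividing cells. Of 72 genes of the mitochondrial ribosome, 1 was higher and 4 lower in B cell-like cells, and 4 higher and 6 lower in T cell-like cells (medians -0.07 and -0.15).

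The mRNAs of the mitochondrial genome and the immediate early genes were compared as well, against the same shares over all genes. Of 11 mitochondrial mRNAs 0 passed in B cell-like cells and 7 were lower in T cell-like cells (median -0.50). Of 10 immediate early genes, which dissociation of tissue is known to induce, 5 were lower in B cell-like and 6 in T cell-like cells. These genes summed to 5830, 3181 and 4160 CPM in monocytes/Mφs of the naïve, 24 h and 72 h library, to 10754 and 9269 CPM in neutrophil-like cells at 24 h and 72 h, to 12177 and 12563 CPM in cluster 8 and to 7508 CPM in cluster 15. The 3 groups with the lowest share of ribosomal protein UMIs were thus those with the highest level of immediate early genes, and the part of dissociation in this was not tested.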

How the data were processed

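Per the labels, the authors made the libraries with the 10x Genomics 3' v2 kit and aligned, filtered and counted them with Cell Ranger 3.0.2 against GRCm38/mm10, removing cells with fewer than 200 genes or over 10% mitochondrial UMIs. The annotation release is not given in the sources used here. The deposited values are raw UMI counts without any normalization. Seurat is named in the submitters' processing notes with no version.

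The members, lists and most alternatives were chosen with earlier results of these data known. Cells were log-normalized and clustered together, without correction between libraries, in Seurat 5.3.0 (R 4.3.3) from 2000 variable genes, 30 principal components, 20 neighbours and resolution 0.8. 244 genes, the members and compared lists, were left out of the variable genes. A cluster was named where at least 3 markers were found in at least 10% of its cells and at least 2-fold above the others (pseudocount 10 CPM), a rule written after the clusters had been seen. Its 10 leading genes also had to hold fewer markers of any other type than of its own, or none of either. A cluster of low depth needed a marker of its type among them. Clusters still unnamed were scored again against clusters named as another type, which named clusters 0 and 4. Clusters 8 and 15 had enough neutrophil markers but failed these further rules. Doublets were kept. An alternative removed the 54 cells with the highest Scrublet scores (scanpy 1.11.5).

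UMIs were summed per class and library and given as CPM, with exact Clopper-Pearson intervals for shares and exact conditional Poisson intervals for ratios (scipy 1.17.1). Classes were tested on 9 sums (3 classes in 3 libraries) with edgeR 4.0.16, genes of low count removed, and with DESeq2 1.42.0 as an alternative. The steps were tested on simulated data. Named genes were the 10 members with the most UMIs, all members outside the canonical set, the 5 largest and 5 smallest class differences that passed and kept their sign in all 3 libraries, the 3 most extreme CPM ratios at each end per class and library pair, the members shifted in every group, *Rpl32*, *Rpl22*, 3 genes per compared list, and the 3 extremes at each end in neutrophil-like cells. A few results under this rule are not reported here, and a few more genes are named where a count or a contrast rests on them. Gene positions, coding lengths and transcripts came from GENCODE vM21 (GRCm38), start sequences from RefSeq (GRCm38.p6). Alternatives varied the cell filter, doublets, resolution, clustering genes, denominators, depth, scaling, thresholds and libraries. Adding the pseudogene rows to their genes was chosen after seeing the data.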

Additional observations from a re-analysis of the deposited data

Results flagged for a closer look

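The ratio of the ribosomal protein share between the 24 h and the naïve library was 0.851 in DC-like cells and 1.02 in T cell-like cells, so these classes moved in opposite directions, on 21 naïve DC-like cells. In T cell-like cluster 9 alone, whose makeup can also differ between these libraries, it was 0.854, the same direction as in DC-like cells. The value of the T cell-like class went with cluster 10, which held 130 of its 188 naïve cells and 6 of its 71 at 24 h. The ratio of the share between 72 h and naïve was 0.928 in dividing cells and 1.17 in monocytes/Mφs, a class whose makeup differed between these libraries. The CPM of *Rps27l* at 72 h was 0.474 times its 24 h value in B cell-like cells and 3.59 times in cluster 8, which had 27 cells at 24 h. Each of these 3 differences rests on 1 library per time point and was not tested.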

How the results depend on the processing

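Values of main results under alternatives were held against a spread or, for counts, against 1.5 times the main count. The spread was the SD over libraries for ratios between classes. For ratios between libraries it was the SD over classes, which is not a spread of replicates. By this rule 144 values stayed within, 39 moved and 1 changed direction. The cause of a move was not tested. In cells of 1000 to 4000 UMIs the median 24 h over naïve ratio of the share was 1.03 in place of 0.951, the B over monocyte/Mφ ratio 1.68, the T ratio 1.22 and the neutrophil ratio 0.193. The neutrophil ratio, 0.239 in the main setting, was 0.243 at resolution 0.5, 0.196 with a filter of 500 genes and 5% mitochondrial UMIs, 0.2497 with clusters made without ribosomal protein UMIs, 0.234 without mitochondrially encoded genes in the denominator, 0.290 without the 20 highest other genes and 0.2503 as a mean over cells. Without the 20 highest genes the T ratio was 1.22. Members past 1.5-fold, summed over 4 classes, were 28 (24 h over naïve), 22 (72 h over naïve) and 51 (72 h over 24 h). A threshold of 25% gave 77, 70 and 100 and a fold of 2 gave 6, 8 and 15. TMM scaling gave 35 for 72 h over naïve and canonical genes alone 16 for 24 h over naïve. Members shifted in every group were 5, 3 and 5 for these pairs. A threshold of 50% gave 3, 1 and 2, a threshold of 15% gave 5 and 10 for the last 2 pairs, canonical genes alone 3 for the first, doublet removal 3 for the last, and the pseudogene rows and *Rps27rt* added to their genes 4, 5 and 5, of which 3 each were among those of the main setting (*Rpl9* no longer passed for the first pair and *Rpl27* for the last). For these fold and shift counts under alternatives the share over all genes was not counted, so they describe the members alone. B cell-like over monocyte/Mφ-like gave 30 members higher without a filter on low counts (4.70% of all genes). On leaving out a library it gave 30 to 67 higher and 1 lower (6.37 to 11.4% and 11.3 to 16.3% of all genes). T cell-like gave 8 higher with DESeq2 (12.2% of all genes) and 2 without the filter (8.84%). It gave 9 higher and 10 lower with clusters made without ribosomal protein UMIs (15.6% and 20.9% of all genes). Without TMM it gave 55 higher and 2 lower (26.9% and 15.5%). On leaving out a library it gave 1 to 15 higher and 1 to 9 lower (8.48 to 16.2% and 12.7 to 21.5%). Leaving out the library block gave 7 higher and 2 lower (15.8% and 17.9%). It changed no other call by over 1.5 times. The block is the library itself, since the labels number no replicates. At resolution 0.5 no DC-like class was named, so values for it could not be given there.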
